A study of Mus musculus with 6 samples.

Results

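Cohesin is a ring-shaped protein complex that holds sister chromatids together and folds interphase chromatin into loops. It is loaded onto DNA by NIPBL and MAU2, is locked by acetylation of its SMC3 subunit, and is taken off by WAPL together with PDS5 proteins. In proliferating cells, such as those of a lymphoid tumour, the ring must be loaded, made cohesive during DNA replication and cleaved by separase at anaphase.

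The 10 genes described here encode the loader (Nipbl), the ring and its STAG subunits (Smc1a, Smc3, Rad21, Stag1, Stag2), an SMC3 acetyltransferase (Esco1), and release and maintenance factors (Wapal, now named Wapl, Pds5a and Pds5b). They are 10 of 29209 entries of a deposited comparison, taken by their listed symbol, and all 10 are among the 18543 entries that were tested. The set was chosen by name with its folds and adjusted p-values in this comparison already known, Nipbl as the lead gene. Its values are therefore a description, and no test over the set was made.

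RNA was sequenced from 6 samples of subcutaneous tumours in NCr nude mice, hosts that lack a thymus. The tumours in both groups grew from injected spleen cells of diseased mir-155LSLtTA mice, whose cells overexpress the microRNA miR-155 until doxycycline (DOX) turns it off. In 3 samples the host mice ate chow with 2.3 mg of DOX per kg during the last 16 hours, and in 3 samples they received no treatment. Whether each sample is a different mouse is not stated in the labels, and p-values below reflect sample-to-sample spread that could be technical. The ages of the mice and the Cre driver of the donor mice are not given in the sources used here. No DOX-treated tumour without the transgene was part of the design, so DOX itself and miR-155 loss cannot be told apart.

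The authors' deposited table holds a linear fold, an unadjusted p and an adjusted p for each entry, and no value per sample. Group means, replicate SDs and sequencing depth are therefore unknown here, and no leave-one-out check could be made. The fold was taken to be DOX divided by no DOX. The table does not state this order, and every direction given below turns around if the authors divided the other way. A gene is said to have risen or fallen where the authors' adjusted p is under 0.05. As a rough measure of error, a standard error (SE) was computed for each of the 10 genes and, where given, for other genes. It is the SE that would turn the log2 fold into its unadjusted p under a normal distribution, and it gives a 95% interval. These intervals are built from the fold and the p and add no evidence to them.

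Among the 10 genes, 4 rose after DOX, 0 fell and 6 did not pass. Those that rose were Nipbl, Esco1, Wapal and Stag2, one gene each of loading, acetylation, release and the STAG pair. The shares called over all tested entries were 5.72% higher and 5.61% lower. Because the genes were picked with this comparison in view, nothing is read from their count against those shares. The median log2 fold of the 10 was 0.72, with a range from -0.53 to 2.47, against a median of 0.17 over 15784 tested entries with a finite fold.

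**Figure D1:**
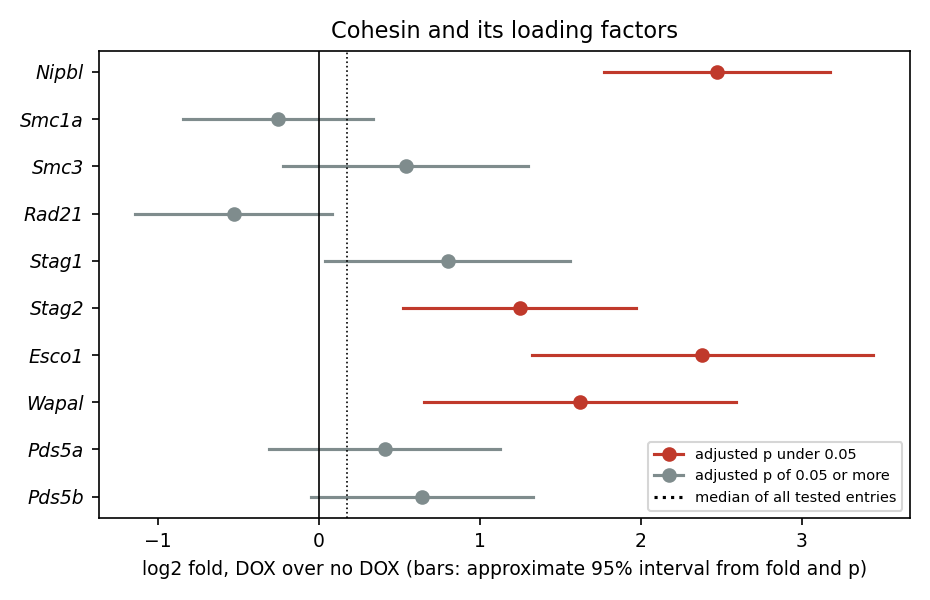
Log2 fold (DOX over no DOX) of the 10 cohesin genes, from the authors' deposited table, with approximate 95% intervals computed from fold and p; red marks an adjusted p under 0.05 and the dotted line is the median of all tested entries with a finite fold (0.17). The intervals of Nipbl, Esco1, Wapal and Stag2 lie above 0, as does that of Stag1, which did not pass after adjustment.

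Nipbl encodes the large subunit of the cohesin loader, a HEAT-repeat protein that also stimulates the ring's ATPase. In the authors' deposited table its fold was 5.55, a log2 fold of 2.47 (implied SE 0.357, adjusted p = 2.49e-09). By unadjusted p it ranked 33 of the 18543 tested entries, while 91.0% of finite log2 folds were smaller in size, whichever their sign. It thus stands out more by its p than by the size of its fold. MAU2, the partner that binds the amino-terminal end of NIPBL, is listed under a clone name, 9130404D08Rik, with a log2 fold of 0.31 (adjusted p = 0.695) in the authors' deposited table. A further entry tied to Mau2, mKIAA0892, had a log2 fold of 1.21 and missed the threshold (adjusted p = 0.0669) in the authors' deposited table. Reads of Mau2 may have been divided between both entries, so its total is uncertain.

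The ring itself is formed by the ATPases SMC1A and SMC3 and the kleisin RAD21, which separase cuts. None of these 3 genes passed. Smc1a had a fold of 0.837 and a log2 fold of -0.26 (interval -0.85 to 0.33, adjusted p = 0.773) in the authors' deposited table. For Rad21 the authors' deposited table gives a fold of 0.693 and a log2 fold of -0.53 (interval -1.14 to 0.08, adjusted p = 0.325). Smc3 stood on the other side of 1, with a fold of 1.45 and a log2 fold of 0.54 (interval -0.22 to 1.30, adjusted p = 0.474) in the authors' deposited table. Each of these intervals ends below the lower bound of Nipbl (1.77), as do those of Stag1, Pds5a and Pds5b. Nipbl was made the lead gene with these values known, so that gap is a description only. Differences between genes were not tested, since that needs values per sample.

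STAG1 and STAG2 are alternative subunits that bind the kleisin and carry much of the contact with CTCF and other chromatin proteins. Stag2 rose, with a fold of 2.37 and a log2 fold of 1.25 (implied SE 0.370, adjusted p = 0.0115) in the authors' deposited table. Stag1 had a fold of 1.74 and a log2 fold of 0.80, with an unadjusted p of 0.0391 that became 0.190 after adjustment, in the authors' deposited table. The intervals of both paralogues overlap widely, from 0.52 to 1.97 for Stag2 and from 0.04 to 1.56 for Stag1, so the call of one and not of the other does not show that they differ.

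ESCO1 acetylates SMC3 throughout interphase, ESCO2 does so during S phase, and the deacetylase HDAC8 reverses the mark. Esco1 rose, with a fold of 5.21 and a log2 fold of 2.38 (implied SE 0.540, adjusted p = 0.000461) in the authors' deposited table. Its fold was close to that of Nipbl, yet its rank by unadjusted p was 413. Esco2 had a log2 fold of 0.39 with an unadjusted p of 1 in the authors' deposited table, which gives no usable interval. Hdac8 rose as well, with a log2 fold of 1.76 (adjusted p = 0.00921) in the authors' deposited table. The acetylase of interphase and the deacetylase thus both passed in the same direction.

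WAPL opens the ring at the junction of SMC3 and the kleisin, and PDS5 proteins serve both this release and the upkeep of cohesion. Wapal rose, with a fold of 3.08 and a log2 fold of 1.62 (implied SE 0.496, adjusted p = 0.0150) in the authors' deposited table. It has the largest adjusted p of the 4 genes that passed, and the next gene, Stag1, stood at 0.190. Pds5b had a fold of 1.56 and a log2 fold of 0.64 (interval -0.05 to 1.33, adjusted p = 0.275) in the authors' deposited table. For Pds5a the authors' deposited table gives a fold of 1.33 and a log2 fold of 0.41 (interval -0.31 to 1.13, adjusted p = 0.626). The intervals of both PDS5 genes include 0 and also a doubling.

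Of the 10 genes, 3 have a second entry that RefSeq synonyms tie to them, and none of these entries passed. SAP2, described as the nuclear protein SA2 and so tied to Stag2, had a log2 fold of 1.03 (adjusted p = 0.654) in the authors' deposited table. The clone entry 9030416H16Rik, tied to Pds5a, had one of 1.87 (adjusted p = 0.395), and SmcB, tied to Smc1a, one of 0.78 (adjusted p = 1), in the authors' deposited table. Reads could have been divided between such entries and the main one.

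**Figure D2:**
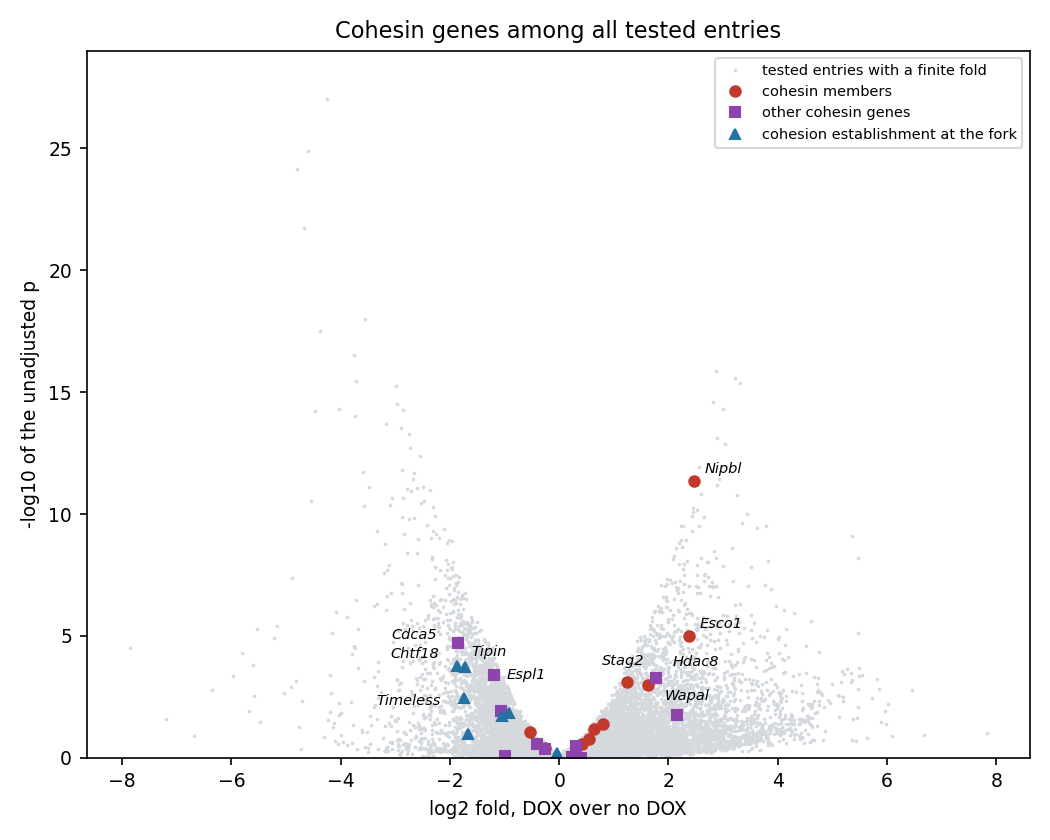
Log2 fold (DOX over no DOX) against -log10 of the unadjusted p for tested entries with a finite fold (grey), from the authors' deposited table; circles are the 10 cohesin genes, squares other cohesin genes and triangles genes of cohesion establishment at the replication fork, with names where the adjusted p is under 0.05. Nipbl stands highest among the marked genes, and Cdca5, Espl1, Chtf18, Tipin and Timeless lie on the lower side.

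The other cohesin genes, 14 of which were listed and 13 tested, held calls in both directions, with 1 higher and 2 lower. The shares over all tested entries were 5.72% higher and 5.61% lower, and the list was not tested against them. Besides Hdac8, the calls were Cdca5 and Espl1. Cdca5 encodes sororin, which shields acetylated cohesin from WAPL, and fell by 1.85 on the log2 scale (adjusted p = 0.000749) in the authors' deposited table. Espl1, the separase gene, fell by 1.19 on the log2 scale (adjusted p = 0.00730) in the authors' deposited table. Pttg1, the gene of the separase inhibitor securin, had a log2 fold of -1.07 but missed the threshold (adjusted p = 0.0836) in the authors' deposited table.

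Shugoshins protect centromeric cohesin in mitosis. Sgol1 had a log2 fold of -0.40 (adjusted p = 0.638) and Sgol2 one of 0.23 (adjusted p = 1) in the authors' deposited table. Ctcf, whose zinc finger protein halts loop extrusion by cohesin, had a log2 fold of -0.25 (adjusted p = 0.802), and its germline paralogue Ctcfl one of 2.15 (adjusted p = 0.112), in the authors' deposited table. Among subunits known from meiosis, Stag3 had a log2 fold of -0.99 (adjusted p = 1), Rec8 is listed with a fold of 0 and Smc1b with an infinite one, both at an adjusted p of 1, in the authors' deposited table. Rad21l matched no tested entry. The median log2 fold of this list was -0.25 over 11 finite folds.

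Genes that tie cohesion to the replication fork had folds below 1, though that of Ddx11 (0.978) was close to 1. All 7 tested genes of this list had a fold below 1, and 3 fell, with a median log2 fold of -1.67. Over all 18543 tested entries 7536 had a fold below 1 and 5.61% fell, and the list was not tested against these shares. Chtf18, of the alternative clamp loader, fell by 1.87 (adjusted p = 0.00392) on the log2 scale in the authors' deposited table. Tipin and Timeless form the fork protection complex, and they fell by 1.72 (adjusted p = 0.00406) and 1.74 (adjusted p = 0.0361) on the log2 scale in the authors' deposited table. The other 4, Dscc1, Wdhd1, Chtf8 and the helicase gene Ddx11, did not pass and ranged from -1.67 to -0.03 in the authors' deposited table.

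These falls stood beside a broader one of replication and mitosis genes. Of 24 proliferation genes 17 fell and 0 rose, with a median log2 fold of -1.46. Over all tested entries 5.61% fell and 5.72% rose. The list was chosen with earlier results of these data known and was not tested against these shares. Led by adjusted p, those that fell included Mcm2, of the replicative helicase, Rrm1 and Rrm2, of ribonucleotide reductase, and the sliding clamp gene Pcna. Mki67 was the 1 gene of this list with a fold above 1, at a log2 fold of 0.72 (adjusted p = 0.969) in the authors' deposited table. Its approximate interval, from -2.37 to 3.80, is too wide to give a direction. Whether the values of the cohesin genes moved with these proliferation genes was not tested. In such bulk RNA, fewer cells of a type and less RNA per cell cannot be told apart.

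The sister SMC complexes were read in the same way. Over all tested entries 5.72% rose and 5.61% fell, and neither complex was tested against these shares. Condensin compacts mitotic chromosomes, and SMC5/6 acts in repair and at stalled forks. Of 7 tested condensin genes 0 rose and 2 fell, Ncapd2 at a log2 fold of -1.24 (adjusted p = 0.00265) and Ncaph at one of -1.10 (adjusted p = 0.0303) in the authors' deposited table. The condensin ATPase genes Smc2 (0.34, adjusted p = 1) and Smc4 (0.66, adjusted p = 0.435) were not called, the values being log2 folds from the authors' deposited table. The approximate interval of Smc2 ran from -3.17 to 3.86, too wide to give a direction. Of 7 tested SMC5/6 genes only Smc5 passed, with a log2 fold of 1.58 (adjusted p = 0.00956), while Smc6 had one of 0.97 (adjusted p = 0.183), in the authors' deposited table. The 5 non-SMC genes of SMC5/6 did not pass, and their log2 folds ranged from -1.15 to -0.03. The medians were -0.37 for condensin and -0.56 for SMC5/6, and whether they differ from the cohesin median of 0.72 was not tested.

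**Figure D3:**
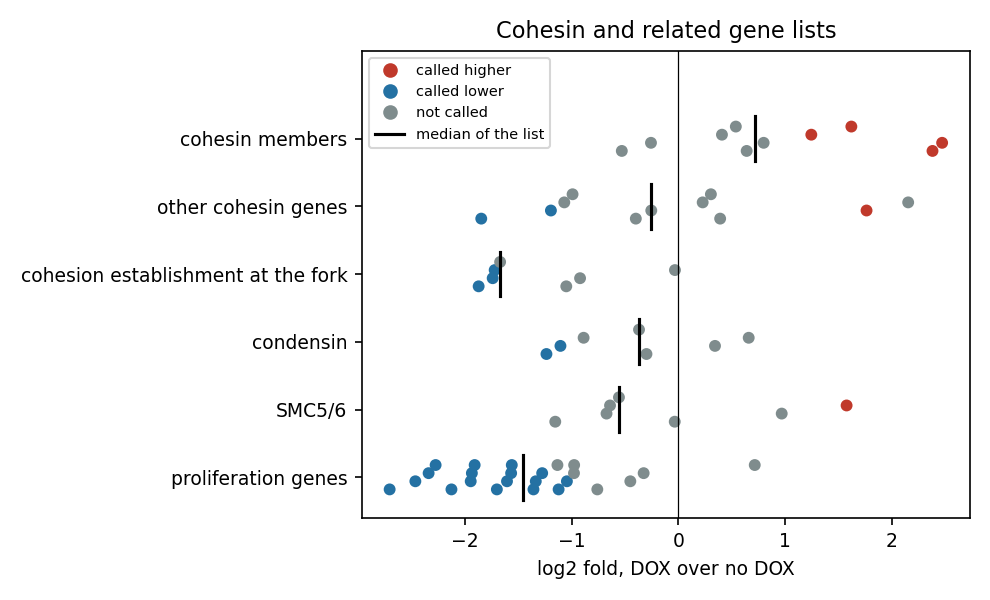
Log2 fold (DOX over no DOX) of each gene with a finite fold in 6 lists, from the authors' deposited table; red and blue mark adjusted p under 0.05 in either direction and the black bar is the list's median. The cohesin genes have 4 red points and no blue one, the fork list has 3 blue points, and the proliferation list has 17.

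Marker genes of other cells were read in the same comparison. Over all 18543 tested entries, 11007 had a fold above 1, of which 2180 were infinite. The shares called over all entries were 5.72% higher and 5.61% lower, and no marker count was tested against these shares. All 13 tested macrophage markers had a fold above 1, and 5 of them rose. The log2 folds of all 13 ranged from 0.41 to 4.75 in the authors' deposited table. All 9 fibroblast markers had a fold above 1, with log2 folds from 0.13 to 3.74 over all 9, and 3 of them rose. Of 6 tested neutrophil markers 5 had a fold above 1 and 2 rose, with a median log2 fold of 4.90 over 4 finite folds. Among the neutrophil markers that did not pass, S100a8 had a log2 fold of 5.96 (adjusted p = 0.0874) and S100a9 one of 5.47 (adjusted p = 0.0653), while Camp is listed with an infinite fold and Mpo with a fold of 0, in the authors' deposited table. Of 6 endothelial markers 5 had a fold above 1, with a median log2 fold of 1.28, and the 1 that passed, Eng, fell by 1.04 on the log2 scale in the authors' deposited table. Among 11 B lineage markers 2 rose and 1 fell, with a median log2 fold of 0.24, and among 7 tested T cell markers 0 passed, with a median of -0.34. The table gives no level per group, so the amount of each cell type is unknown, and the part of other cells in the cohesin values was not tested.

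The 10 cohesin genes share long transcripts. Over 14274 tested genes with a GENCODE protein-coding transcript, the median length was 3096 bases. The longest transcripts of the 10 genes ran from 3956 bases for Rad21 to 9423 bases for Nipbl, so every one of them was longer than that median. Their coding part ranged from 1908 bases for Rad21 to 8397 bases for Nipbl. Their GC content was low, with a median of 42.1% against 50.3% over all genes, and Stag2, at 38.1%, lay at percentile 1.51. Across the table the share of genes that rose grew with length, from 0.630% in the shortest of 10 equal bins to 14.5% in the longest. The share that fell went the other way, from 16.7% to 3.01%, and both exchange places if the fold is turned. Nipbl, Pds5a and Pds5b lie in that longest bin. Bin 9, in which 9.25% rose, holds Wapal, Stag1 and Stag2. Esco1, Smc3 and Smc1a lie in bin 8 (6.31%) and Rad21 in bin 7 (5.53%). By contrast, the fork genes had a median length of 3214 bases and a median GC content of 51.7%. Condensin genes had medians of 4629 bases and 46.8%, and SMC5/6 genes of 2679 bases and 45.2%. Their SMC subunits were also long and low in GC, Smc2 (5404 bases, 39.7%), Smc4 (4316, 40.2%), Smc5 (5683, 38.7%) and Smc6 (5603, 40.4%). Long transcripts low in GC are thus not particular to the 10 genes. Length moved with the calls across the table, and its part in the cohesin values was not tested.

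**Figure D4:**
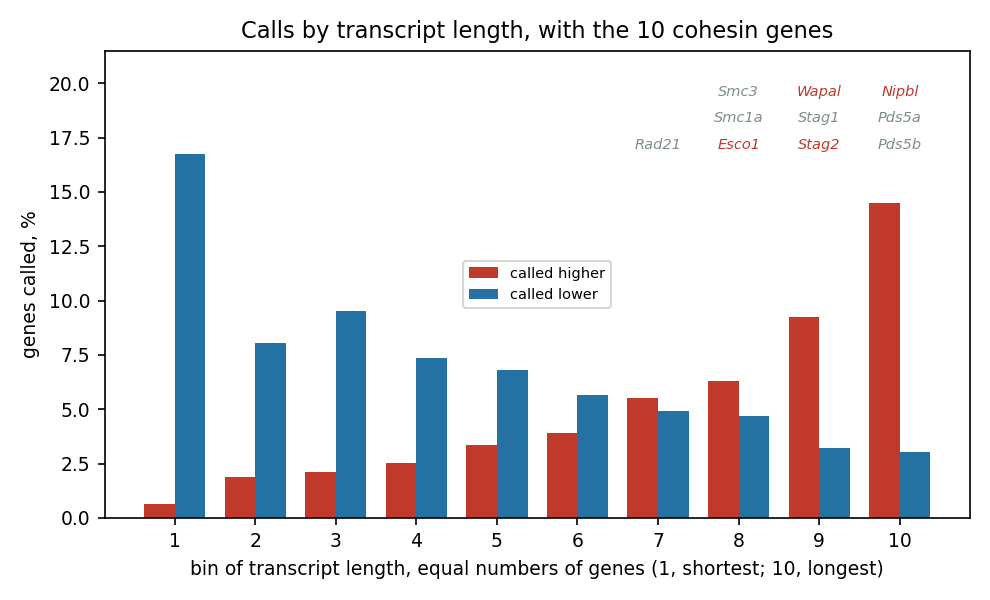
Percent of genes called higher (red) or lower (blue) at an adjusted p under 0.05 in each of 10 equal bins of transcript length, from the authors' deposited table and GENCODE lengths, with the 10 cohesin genes written above the bin that holds them, red where they rose. The share called higher climbs from 0.630% in the first bin to 14.5% in the last, and the share called lower goes from 16.7% to 3.01%.

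Because the labels give the groups as with and without miR-155 withdrawal, the 3' UTRs of the 10 genes were searched for its seed matches, AGCATTA (7mer-m8) and GCATTAA (7mer-A1), on the sense strand only. The mature microRNA, from RefSeq (GRCm38.p6, chr16:84714143-84714165, plus strand), is shown with its seed, bases 2 to 8, in capitals. Only Pds5a, which did not pass, holds a match, and it holds one of each kind in the longest annotated 3' UTR of 4476 bases. Both are shown in capitals with their flanks as DNA, from GENCODE transcripts (GRCm38, minus strand), at chr5:65607766-65607794 and chr5:65605731-65605759.
mmu-miR-155-5p: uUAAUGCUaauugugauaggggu
Pds5a 7mer-m8: ccaagaaatgcAGCATTAtgtagaagtgt
Pds5a 7mer-A1: tggaaatctttGCATTAAatcatggaatt

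The match starts at base 2414 of that UTR for the 7mer-m8 and at base 4449 for the 7mer-A1. In all, 1 of the 10 genes has a match, against 13.5% of 14233 tested genes with an annotated 3' UTR and 18.1% of the 9849 whose UTR is at least as long as the shortest of the 10 genes. Of 713 genes that rose and have an annotated 3' UTR 25.8% hold a match, and of 990 that fell 8.28%, with no allowance for UTR length. Nipbl, with an annotated 3' UTR of 608 bases, Esco1 (992), Wapal (2293) and Stag2 (1899) hold neither motif there. This says only that these letters are not in the annotated windows.

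RefSeq promoters, from 250 bases before to 50 after the start (GRCm38.p6), were at hand for 6 of the 10 genes, Pds5a, Pds5b, Smc1a, Smc3, Stag1 and Wapal. Of these Wapal alone rose, and its promoter is shown, at chr14:34673678-34673977 on the plus strand, with matches to the CCAAT box on either strand in capitals.
Wapl promoter: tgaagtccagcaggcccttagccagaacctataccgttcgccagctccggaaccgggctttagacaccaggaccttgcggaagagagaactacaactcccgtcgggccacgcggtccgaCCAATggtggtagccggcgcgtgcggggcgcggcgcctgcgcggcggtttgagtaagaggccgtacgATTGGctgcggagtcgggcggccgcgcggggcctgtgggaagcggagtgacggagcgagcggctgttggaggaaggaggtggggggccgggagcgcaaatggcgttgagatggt

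CCAAT was found on either strand in 4 of the 6 promoters (Wapal, Stag1, Pds5b and Smc1a) and in 37.4% of all 32851 promoters of that length. The E-box CACGTG, which MYC and MAX bind, was found in 0 of the 6 and in 7.15% of all. The ETS-like CCGGAAG (8.86% of all), the NRF1-like GCGCATG (3.91%) and the YY1-like AAGATGG (6.34%) were likewise found in 0 of the 6, both strands being searched and overlaps between motifs allowed. Wapal, which rose, and Smc1a, which did not pass, thus share the CCAAT match.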

How the data were processed

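Per the submitters' processing notes, the tools were RSEM and DESeq (no version given) and the genome was mm9. Per the labels' protocols, cells dispersed from the tumours were freed of red blood cells, and their total RNA was depleted of ribosomal RNA. The deposited file holds a linear ratio (fold) and unadjusted and adjusted p-values of the authors' comparison of 3 against 3 samples, per the file headers. Depth and values per sample are unknown, so no test across samples was run.

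Log2 folds were computed from the deposited ratio. Of 18543 tested entries, 15784 have a finite fold, 2180 an infinite one and 579 a fold of 0. A Benjamini-Hochberg adjustment of the unadjusted p-values over the tested entries gave the deposited adjusted ones to within 2.09e-06. Implied SE is the size of the log2 fold divided by the two-sided normal z of its unadjusted p, and was left out for p above 0.9. Entries were matched to RefSeq (GRCm38.p6) by symbol (11736), accession (1457) or unique synonym (2022), and 3328 had no match. Lengths, GC and 3' UTRs come from GENCODE M21 (GRCm38), by the longest coding transcript and, separately, the longest 3' UTR per gene, and are not of the build mm9. One entry per gene was used there. The adjustment, the counting of calls and the seed search were tested on simulated data, and the other steps were not (Python 3.11.15, pandas 2.3.3, scipy 1.17.1).

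The 10 genes and all lists were chosen with earlier results of these data known. Named were the 10 genes, every tested gene of the other cohesin list, the SMC subunits of condensin and SMC5/6, and up to 4 called genes per direction of the other lists by adjusted p. Mki67, the neutrophil markers and the genes of the fork list that did not pass were named after their values were seen. Alternatives changed the threshold, the adjustment, the tested set, a 2-fold minimum and the centring.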

Additional observations from a re-analysis of the deposited data

How the results depend on the processing

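No paired analysis was possible because the deposited table holds no values per sample; for the same reason the planned fits without each sample were not run. Among the 10 cohesin genes, 4 were higher at an adjusted p under 0.05, 2 at 0.01 (Nipbl and Esco1) and 1 under Bonferroni (Nipbl), stricter by construction. The same 4 passed among finite folds alone and among protein-coding matches alone, each adjusted again. They also passed at 0.1, with a 2-fold minimum, and over all 13 tested entries tied to the genes, an alternative chosen after seeing the data. There the 4 could not have dropped out by construction. A looser threshold keeps every call, their folds all exceed 2, and the added entries left the adjusted p-values unchanged. Under all of these settings 0 were lower. Subtracting the median of all tested entries (0.17) turned no direction among the 10. It could not have, since each positive log2 fold among them exceeds that median. Elsewhere, condensin had 1 gene lower at 0.01, and 3 at 0.1, among finite folds alone and among protein-coding matches alone. The fork list had 2 lower at 0.01 and 4 at 0.1, and the other cohesin genes had 3 lower at 0.1. SMC5/6 had 1 lower, Nsmce1, at 0.1 and among finite folds alone. Under Bonferroni, 0 of the other cohesin, fork, condensin and SMC5/6 genes passed in either direction, and 4 proliferation genes were lower. The counts over all tested entries were 1060 higher and 1041 lower, 576 and 569 at 0.01, and 137 and 154 under Bonferroni. Sequencing depth is unknown, and the intervals given are approximations from fold and p.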
